A study of Mus musculus with 16 samples.

Results

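The 45 genes described here encode the machinery that copies DNA: origin licensing and firing factors, the replicative polymerases, the sliding clamp and the fork proteins that work with it, enzymes of nucleotide supply, histone and methylation maintenance factors at the fork, and regulators of entry into S phase. They were chosen by gene symbol from what the proteins do, with no measured value in the rule, but with earlier results of these data known. All 45 were found among the 14829 genes of the deposited count table. RNA was sequenced from hematopoietic stem cells of mouse bone marrow, with 16 libraries from 8 mice. Each mouse gave marrow cells to a vehicle arm and to an arm exposed to dmPGE2, a stable dimethyl analog of prostaglandin E2, for 1 h at 37 °C, and the stem cells were then sorted and lysed. The groups were 4 young mice and 4 old mice, each present once in the vehicle arm and once in the dmPGE2 arm. The sources used here do not state exact ages, strain, sex or sorting markers. No genotype or transgene is named for any group. The sample descriptions carry 2 consecutive dates, called date 1 and date 2 below, and what was done on those dates is not stated. Mice 477 and 478 (young) and 479 and 480 (old) belong to date 1, and mice 483 and 484 (young) and 485 and 486 (old) to date 2. Where the values of 4 mice follow each other, they stand in that order, so that the first 2 are from date 1.

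A replication origin is licensed in G1, when the origin recognition complex, Cdc6 and Cdt1 load the ring of Mcm2 to Mcm7 onto DNA. At the start of S phase Cdc45 and the GINS complex join the ring to form the active helicase, and polymerases then copy both strands behind it. Most hematopoietic stem cells of the adult marrow rest outside the cell cycle, and the transcripts of licensing and fork proteins are abundant mainly in cells that are in late G1 and S phase. Many of these genes are known targets of the E2F transcription factors, which the retinoblastoma family of proteins holds in check in resting cells.

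The promoters are shown because the members were lower together in old mice in the comparison that follows, and an E2F motif is the feature they are best known for. RefSeq promoter windows of build GRCm38.p6, which is mm10, were at hand for 37 of the 45 genes, each running from 250 bases before to 50 bases after the annotated start. The 8 without a window were Mcm4, Gmnn, Gins1, Gins2, Prim2, Pole, Rfc2 and Ccne2. Each window was searched on both strands for the 4 E2F motifs TTTCCCGC, TTTCGCGC, TTTGCCGC and TTTGGCGC, and matches on opposite strands can overlap. At least 1 match lay in 14 of the 37 members with a window (37.8%), compared with 704 of all 27025 genes (2.6%) and 744 of all 32851 windows (2.26%). The window below gives the match and up to 30 bases on either side for the 5 members whose match lies before the start site and clear of annotated exons, 5′ to 3′ on the strand of the gene, with the matched bases in capitals.
Mcm5: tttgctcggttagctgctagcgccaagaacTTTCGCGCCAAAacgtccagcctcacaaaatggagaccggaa
Mcm6: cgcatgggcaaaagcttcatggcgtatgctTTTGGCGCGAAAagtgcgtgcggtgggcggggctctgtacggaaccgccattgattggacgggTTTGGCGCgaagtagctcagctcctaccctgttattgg
Cdc6: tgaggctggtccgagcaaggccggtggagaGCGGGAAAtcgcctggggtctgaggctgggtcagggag
Pola1: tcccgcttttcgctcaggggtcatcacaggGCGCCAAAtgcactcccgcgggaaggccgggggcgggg
Uhrf1: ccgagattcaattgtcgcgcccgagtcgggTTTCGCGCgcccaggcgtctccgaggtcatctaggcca
The Mcm5 stretch is at chr8:75109326-75109397 (plus strand), where a match on each strand overlaps its neighbor to form one run of capitals. The Mcm6 stretch is at chr1:128359715-128359845 (minus strand) and holds 3 matches, of which the first 2 overlap. The stretches of Mcm5, Mcm6 and Pola1 (chrX:93632256-93632323, minus strand) lie outside every annotated GENCODE transcript. Those of Cdc6 (chr11:98907983-98908050, plus strand) and Uhrf1 (chr17:56304098-56304165, plus strand) lie in an intron of another transcript of the same gene. The remaining members with a match were Mcm3, Mcm7, Cdt1, Orc1, Gins3, Pold1, Pole2, Rfc3 and Lig1. A list of 59 further replication genes had a match in 17 of 48 windows (35.4%), and a list of 30 mitosis genes in 1 of 24 (4.17%). The order was reversed for TTTGAA, the core of the CHR element known from mitosis genes, which lay in 16 of the 24 mitosis windows (66.7%), in 4 of the 37 member windows (10.8%) and in 5466 of all genes (20.2%). CCAAT lay in 22 of the 37 member windows (59.5%), in 19 of the 24 mitosis windows (79.2%) and in 11096 of all genes (41.1%). A match of letters is a description of the window and does not show that a factor binds there. Nor does a window without one of the 4 exact motifs show that E2F does not act on the gene.

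Library totals ran from 12960704 to 19226963 counts, and no member was at a count of 0 in any library. All 14 stem cell markers checked, among them Procr, Slamf1 and Mecom, were detected in each vehicle library. The libraries of the 2 dates stand apart in markers of other cells. The summed level of 10 neutrophil markers was 4.18 to 6.67 CPM, counts relative to library size, in the vehicle libraries of date 1 and 778 to 1476 CPM in those of date 2. Of these, Camp, Lcn2 and Mmp8 were at a count of 0 in at least 1 old vehicle library of date 1. The stem cell marker sum was 5343 to 6939 CPM on date 1 and 3529 to 5344 CPM on date 2. The counts of replication and mitosis genes that differ with age are therefore also given by date.

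Per kilobase of gene model, so that genes can be compared with each other, the members spanned a wide range in young vehicle libraries. Mcm6, a subunit of the replicative helicase, was the highest at 275 ± 24.4 CPM per kb (SD, n = 4), more than 1 SD above the next gene. Mcm7 (176 ± 17.5), Mcm3 (176 ± 18.6), Rfc2 (172 ± 13) and Pcna (157 ± 20.1 CPM per kb) followed, and each of these 4 lay within 1 SD of the next among them. Mcm2 (128 ± 12.5) and Mcm5 (127 ± 16.0 CPM per kb) came next, more than 1 SD below Pcna and within 1 SD of each other. At the low end stood Mcm10 at 11.8 ± 3.20, Gins3 at 11.7 ± 2.17 and Orc1 at 6.87 ± 4.09 CPM per kb. In old vehicle libraries Mcm6 was again the highest (164 ± 24.9 CPM per kb) and Orc1 the lowest (2.82 ± 1.2 CPM per kb). Together the 45 genes summed to 6297 to 8093 CPM in the 4 young vehicle libraries and to 3566 to 5035 CPM in the 4 old ones, so the sums did not overlap.

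**Figure D1:**
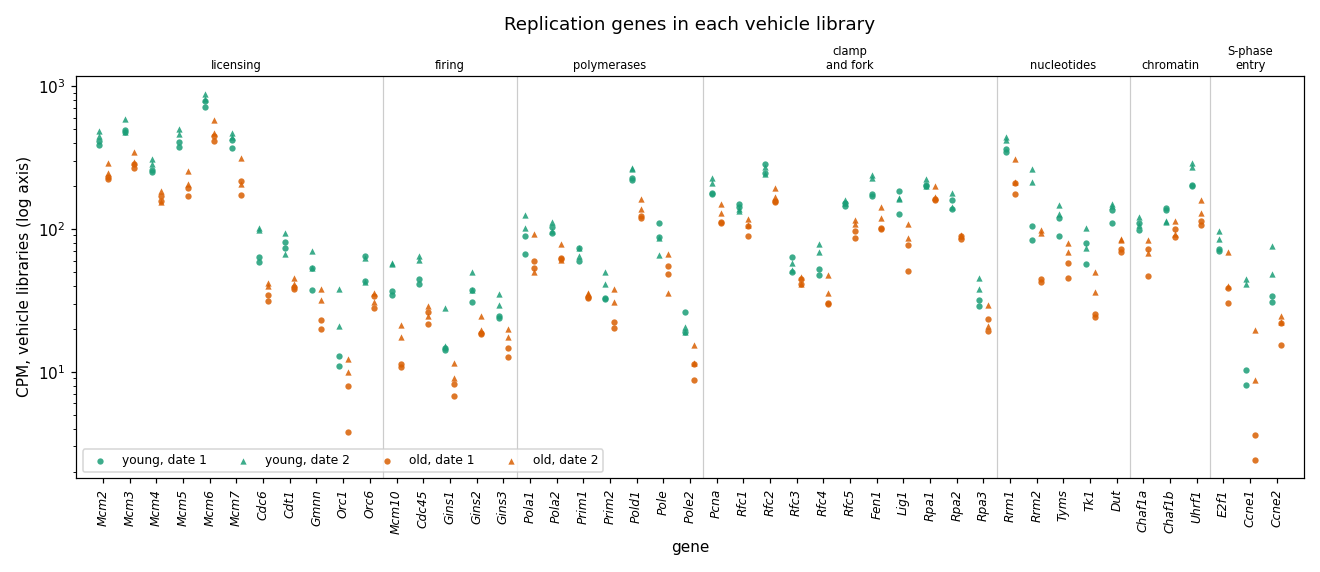
CPM of each of the 45 replication genes (x axis, by role) in the 8 vehicle libraries on a log axis; each point is 1 mouse, circles date 1 and triangles date 2. In 34 of the 45 genes all 4 old points lie below all 4 young points.

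The first comparison asks how the stem cells of old mice differ from those of young mice at baseline. In the vehicle arm all 45 replication genes were lower in old mice at an adjusted p under 0.05, where 8.86% of the 13369 tested genes were called lower. The median log2 difference was -0.83 (1.78-fold lower), compared with a median of -0.00118 over all tested genes. The values ran from -1.64 for Mcm10 to -0.29 for Rpa1. All 4 old mice were below all 4 young mice in 34 of the 45 genes, a pattern that 6.84% of tested genes showed. The count of calls was 38 to 44 when 1 mouse was left out, and 37 members were called in each of those fits. The 8 that were not are Prim2, Rpa1, Pole2, Chaf1b, Pole, Rfc3, Rpa3 and Pola1. With 1 mouse left out, 674 to 1012 of all genes were called lower, against 1185 with all mice. In bulk RNA, fewer cells that express these genes and less of their RNA per cell cannot be told apart.

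**Figure D2:**
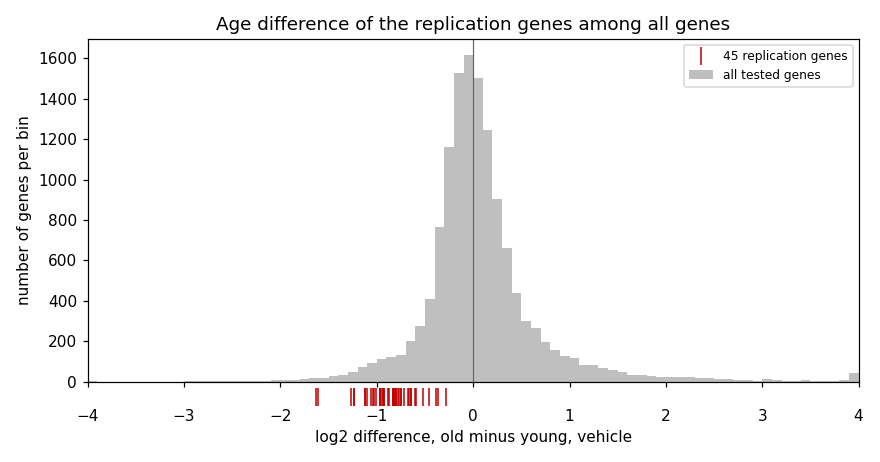
Log2 difference between old and young mice in vehicle (x axis) for all 13369 tested genes (bars, number per bin of 0.1; the end bins also hold values beyond them), with the 45 replication genes as red ticks. All 45 ticks lie below 0, between -1.64 and -0.29.

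Among the 11 licensing genes the median was log2 -0.93, and the Mcm2 to Mcm7 subunits lay between -1.10 and -0.75. Mcm5 had the smallest p of all members. It stood at 376, 409, 459 and 501 CPM in the young mice and at 194, 170.2, 206 and 255 CPM in the old mice. No old mouse reached the lowest young mouse, and the difference was log2 -1.10 ± 0.081, adjusted p = 3.05e-05. Mcm2 measured 389, 411, 449 and 484 CPM in young and 229, 222, 248 and 287 CPM in old mice (log2 -0.83 ± 0.065, adjusted p = 3.43e-05). Mcm6, the most abundant member, measured 711, 782, 817 and 881 and 446, 414, 467 and 580.1 CPM (log2 -0.77 ± 0.076, adjusted p = 0.000153). The groups were apart in both genes, with mouse 486 the highest of the old mice. Cdc6, the loader that brings the Mcm ring to the origin, was at 63.7, 59.0, 101 and 98.3 CPM in young mice and 34.3, 31.3, 41.8 and 39.7 CPM in old mice (log2 -1.12 ± 0.11, adjusted p = 0.000145). Both dates separated the ages for it, and the young mice of date 2 were the highest. Cdt1, its partner in loading (log2 -0.97 ± 0.12, adjusted p = 0.00045), and Gmnn, the inhibitor of Cdt1 (log2 -0.97 ± 0.15, adjusted p = 0.00171), were both lower in old mice, so the loader and its inhibitor fell together. The origin recognition subunits Orc1 (log2 -1.24 ± 0.27, adjusted p = 0.0109) and Orc6 (log2 -0.75 ± 0.16, adjusted p = 0.0102) were also lower, with wider errors.

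The 5 firing genes had a median of log2 -1.03. Mcm10, which stabilizes the helicase at origins as they fire, showed the largest difference of the 45. Its level was 36.5, 34.3, 57.5 and 57.0 CPM in young and 11.4, 10.8, 17.6 and 21.4 CPM in old mice, a 3.11-fold difference (log2 -1.64 ± 0.13, adjusted p = 3.29e-05). Even the highest old mouse, 486, stayed below the lowest young mouse. Cdc45, a helicase cofactor, read 44.8, 41.4, 64.9 and 60.6 CPM against 26.2, 21.5, 24.6 and 28.9 CPM (log2 -1.06 ± 0.13, adjusted p = 0.000506). The GINS subunits Gins2, at 30.9, 37.5, 37.1 and 49.5 CPM in young and 18.4, 18.7, 24.4 and 19.7 CPM in old mice (log2 -0.95 ± 0.15, adjusted p = 0.00151), and Gins3, at 24.6, 23.7, 29.5 and 35.1 and 14.7, 12.7, 17.4 and 20 CPM (log2 -0.83 ± 0.14, adjusted p = 0.00289), gave the same picture. In all 4 of these genes the groups did not overlap. Gins1 was lower as well (log2 -1.03 ± 0.22, adjusted p = 0.0102).

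The 7 polymerase genes had a median of log2 -0.78. Pold1, the catalytic subunit of polymerase delta, was the most precisely measured. Its values were 219, 227, 263 and 267 CPM in young and 119, 123, 137 and 162 CPM in old mice (log2 -0.87 ± 0.070, adjusted p = 3.79e-05). The 2 ages were far apart relative to the spread within each. Prim1, the small primase subunit, was at 59.9, 73.2, 65.0 and 73.0 CPM in young and 33.4, 32.9, 35.4 and 35.0 CPM in old mice (log2 -1.01 ± 0.10, adjusted p = 0.000189), and its old values were nearly identical to each other. Pola2, a subunit of the primase complex with polymerase alpha, measured 93.4, 103, 96.9 and 112 and 61.2, 62.3, 61.0 and 78.4 CPM (log2 -0.65 ± 0.10, adjusted p = 0.00175). For Pole2, of polymerase epsilon, the values were 19.0, 26.0, 20.5 and 19.1 and 11.2, 8.74, 11.5 and 15.3 CPM (log2 -0.89 ± 0.21, adjusted p = 0.0138), and the call was lost without mouse 480. The catalytic subunits Pola1 (log2 -0.59 ± 0.18, adjusted p = 0.0422) and Pole (log2 -0.78 ± 0.19, adjusted p = 0.0159) and the large primase subunit Prim2 (log2 -0.52 ± 0.13, adjusted p = 0.0186) passed with larger p and had old values inside the young range.

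The sliding clamp and fork group of 11 genes had the median nearest to 0, at log2 -0.66. Fen1, the nuclease that trims Okazaki fragments, measured 171, 175, 239 and 228 CPM in young and 99.3, 102, 119 and 141 CPM in old mice (log2 -0.84 ± 0.074, adjusted p = 6.97e-05). Pcna, the clamp itself, was at 177, 176, 209.9 and 227 CPM in young and 112, 110.2, 129.9 and 149.5 CPM in old mice (log2 -0.68 ± 0.071, adjusted p = 0.00019). Neither gene overlapped between the ages. Rpa2, of the complex that coats single-stranded DNA, read 138, 158, 142 and 178 and 89.0, 85.5, 90.6 and 89.8 CPM (log2 -0.82 ± 0.090, adjusted p = 0.000254), and Rfc2, of the clamp loader, 247, 284, 242 and 270.4 and 157, 154, 167 and 193 CPM (log2 -0.66 ± 0.085, adjusted p = 0.000587). Lig1, the ligase that joins Okazaki fragments, had the largest difference of the group (log2 -1.04 ± 0.17, adjusted p = 0.002). The smallest was that of Rpa1, whose old values of 163, 158, 168 and 199.8 CPM reached the young values of 204, 201, 199 and 222 CPM (log2 -0.29 ± 0.076, adjusted p = 0.0257). Its call was lost when any of 6 mice was left out. The clamp loader subunits Rfc1 (log2 -0.46), Rfc3 (-0.39), Rfc4 (-0.80) and Rfc5 (-0.60) and the third replication protein A subunit Rpa3 (-0.64) lay between.

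The 5 nucleotide supply genes had a median of log2 -0.97. Rrm2, the regulated subunit of ribonucleotide reductase, was at 83.2, 105, 211 and 264 CPM in young and 42.6, 44.4, 92.9 and 98.5 CPM in old mice (log2 -1.24 ± 0.11, adjusted p = 5.17e-05). The old mice of date 2 overlapped the young mice of date 1, while within each date old mice were lower. Without the date term its adjusted p was 0.162, within a range of 1.03e-23 to 0.162 over the alternatives. Its partner Rrm1 measured 347, 364, 440.3 and 421 and 208, 176, 212 and 309 CPM (log2 -0.83 ± 0.11, adjusted p = 0.000656). Dut, which removes dUTP, measured 110.1, 135, 144 and 148 and 72.8, 68.4, 83.2 and 84.8 CPM (log2 -0.82 ± 0.085, adjusted p = 0.000189), and Tyms, the thymidylate synthase, 88.6, 119.7, 126 and 147 and 57.3, 45.6, 69.3 and 80.2 CPM (log2 -0.97 ± 0.12, adjusted p = 0.000585). These 3 genes did not overlap between the ages. Tk1, the thymidine kinase of cycling cells, had the largest difference of the group (log2 -1.26 ± 0.17, adjusted p = 0.000713).

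Of the 3 chromatin genes, Uhrf1, which guides maintenance DNA methylation at the fork, was at 201, 202, 272 and 290.4 CPM in young and 107, 113, 129 and 159.5 CPM in old mice (log2 -0.94 ± 0.078, adjusted p = 4.78e-05). The histone chaperone subunit Chaf1a was at 98.8, 109, 121 and 106 and 72.4, 46.4, 67.9 and 83.5 CPM (log2 -0.72 ± 0.14, adjusted p = 0.00566). Neither overlapped between the ages. Chaf1b, the partner subunit of Chaf1a, measured 136, 139, 112 and 114 CPM in young and 99.0, 88.3, 91.8 and 114 CPM in old mice (log2 -0.37 ± 0.11, adjusted p = 0.0399). Its old and young values overlapped on date 2, and the call was lost when any mouse but 486 was left out.

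The 3 regulators of S-phase entry had a median of log2 -1.12. E2f1, the activating E2F factor, was at 70.5, 72.5, 85.4 and 97.4 CPM in young and 38.4, 30.2, 39.9 and 68.3 CPM in old mice (log2 -0.93 ± 0.16, adjusted p = 0.00314). Cyclin E1, encoded by Ccne1, measured 8.06, 10.3, 40.8 and 44.5 CPM in young and 2.41, 3.63, 19.7 and 8.74 CPM in old mice (log2 -1.61 ± 0.26, adjusted p = 0.00178). Date 2 was higher than date 1 in both ages, so old mice of date 2 overlapped young mice of date 1, while within each date old mice were lower. Cyclin E2, encoded by Ccne2, measured 33.8, 30.6, 48.7 and 75.9 and 21.9, 15.5, 24.5 and 22.4 CPM (log2 -1.12 ± 0.19, adjusted p = 0.00301), with no overlap between the ages.

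**Figure D3:**
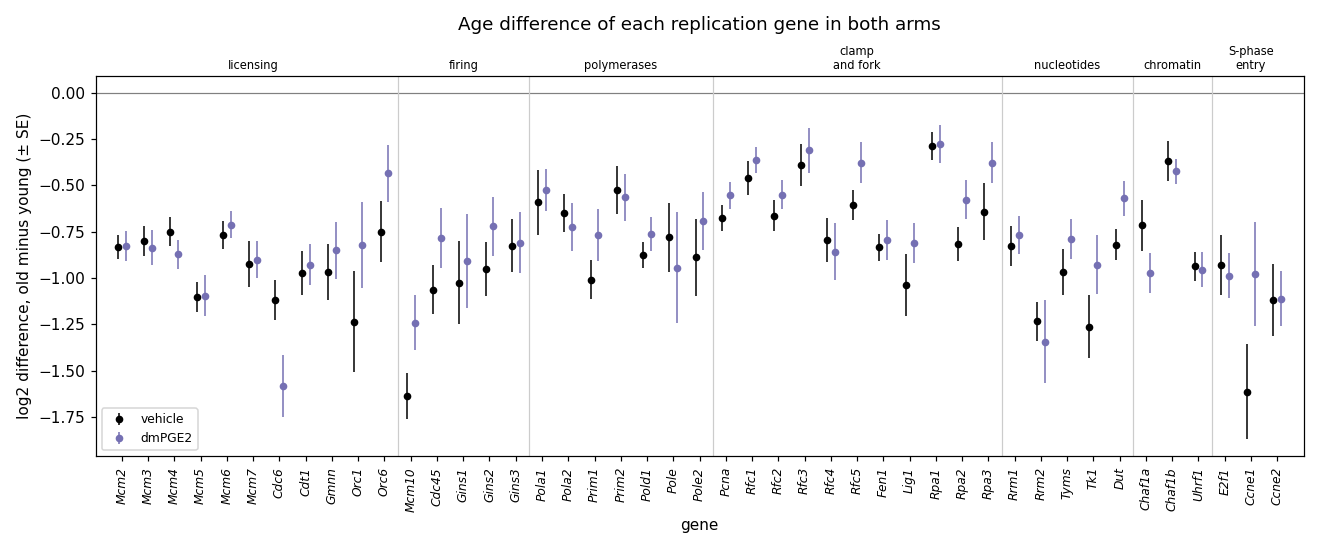
Log2 difference between old and young mice (y axis, ± SE) for each gene (x axis, by role) in the vehicle arm (black) and the dmPGE2 arm (purple), from fits to 8 libraries each with a date term. Every point lies below 0; the arms hold the same mice and are not independent.

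The age difference is also given by E2F match, as a description with no test. The 14 with a match had a median age difference of log2 -0.91 (from -1.24 to -0.39), and the 23 with a window but no match one of -0.82 (from -1.64 to -0.29). The split is by letters only and does not separate E2F targets from other genes. The other genes of the pathway moved less uniformly than the members. Of the 59 further replication genes, 36 were lower and 1 was higher in old mice, with a median of log2 -0.50. The 4 lower genes with the smallest p were Slbp, which binds histone messages (log2 -0.72 ± 0.073, adjusted p = 0.000157), the histone chaperones Asf1b (log2 -1.09 ± 0.11, adjusted p = 0.000177) and Nasp (log2 -1.10 ± 0.12, adjusted p = 0.000224), and Ccna2, the S-phase and mitotic cyclin (log2 -1.26 ± 0.14, adjusted p = 0.000282). The higher one was Rbl2, a retinoblastoma family member associated with the resting state (log2 0.39 ± 0.087, adjusted p = 0.0109). Of the 30 mitosis genes 29 were lower, with a median of log2 -1.02, Cdc25b being the exception (log2 -0.53 ± 0.20, adjusted p = 0.094). Mki67, the proliferation marker, was lower by log2 -0.84 ± 0.17 (adjusted p = 0.00794).

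Markers of other cell types moved with age as well. Of 12 myeloid progenitor markers 6 were lower and 1 was higher in old mice, of 11 erythroid markers 3 were lower, of 10 neutrophil markers 2 were lower, and of the 14 stem cell markers 10 were higher. On date 2 the erythroid sum was 3606 to 4056 CPM in young and 2259 to 2358 CPM in old vehicle libraries, and the myeloid progenitor sum 4112 to 5400 CPM in young and 2832 to 2970 CPM in old. On date 1 the erythroid sums overlapped, at 1803 to 2002 CPM in young and 1809 to 2040 CPM in old. Most of these date 1 sums was Car2 alone, at 1699 to 1894 CPM in young and 1697 to 1966 CPM in old. They therefore say little about the other erythroid markers. The myeloid progenitor sums of date 1 were 1449 to 1588 CPM in young and 1355 to 1429 CPM in old. Calr was the largest part of them, at 785 to 904 CPM in young and 877 to 939 CPM in old. Mpo, a granule enzyme of myeloid progenitors, was at 7.64 to 9.58 CPM in young and 2.01 to 2.97 CPM in old vehicle libraries of date 1, and at 1507 to 2468 and 908 to 951 CPM on date 2. Prtn3, another marker of that list, went the other way, at 114 to 149 CPM in young and 257 to 296 CPM in old on date 1. Cd34, also of that list, was at 444 to 460 CPM in young and 159 to 166 CPM in old on date 1. The share of these cells in the age difference of the replication genes was not tested.

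Fitted on date 1 alone, 36 of the 45 members were called lower in old mice with 2 mice a group (3.38% of tested genes), with a median of log2 -0.84. On date 2 alone 19 were called lower (1.31% of tested genes), with a median of log2 -0.81. Of the 30 mitosis genes 26 were called lower on date 1 (median log2 -1.11) and 7 on date 2 (median -0.89). Of the further replication genes 17 of 59 were called lower on date 1 and 12 on date 2, with medians of log2 -0.50 and -0.51. Both old mice lay below both young mice in 45 of the 45 genes on date 1 (26.4% of tested genes) and in 42 on date 2 (24.5%). The 3 exceptions on date 2 were Rpa1, Chaf1b and Pole. The size of the age difference was compared between the dates directly, and edgeR called 0 of 45 members (0.00% of tested genes), the smallest adjusted p being 0.845. At an unadjusted p under 0.05 the count was 1 member, against 5.89% of tested genes.

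In the dmPGE2 arm, which holds the other portion of the same mice's cells, 41 of the 45 genes were lower in old mice (6.41% of 13279 tested genes), with a median of log2 -0.80. The 4 that did not pass had values of log2 -0.94 (Pole, adjusted p = 0.0672), -0.44 (Orc6, adjusted p = 0.0903), -0.28 (Rpa1, adjusted p = 0.109) and -0.31 (Rfc3, adjusted p = 0.125). All 4 old libraries lay below all 4 young ones in 33 genes (5.95% of tested genes). Mcm4, of the helicase ring, had the smallest p, at 265, 282, 298 and 343 CPM in young and 152, 139, 166 and 197 CPM in old mice (log2 -0.87 ± 0.078, adjusted p = 8.37e-05). Mcm10 measured 33.4, 34.1, 43.2 and 55.1 CPM in young and 12.4, 12.4, 21.4 and 26.8 CPM in old mice (log2 -1.24 ± 0.15, adjusted p = 0.00044). Neither gene overlapped between the ages. Cdc6 had the largest difference in this arm, with 56.5, 56.0, 80.9 and 114 CPM in young and 26.4, 21.4, 25.1 and 26.6 CPM in old mice (log2 -1.58 ± 0.17, adjusted p = 0.000197). The lowest young value for Cdc6 exceeded the highest old value by more than the whole old range. Uhrf1 (log2 -0.96 ± 0.093, adjusted p = 0.000134), Pold1 (log2 -0.76 ± 0.091, adjusted p = 0.00044), E2f1 (log2 -0.99 ± 0.12, adjusted p = 0.000485), Lig1 (log2 -0.81 ± 0.11, adjusted p = 0.000785) and Rrm1 (log2 -0.77 ± 0.10, adjusted p = 0.000823) led the remaining roles. Of the 41 calls, 32 were kept in each fit that left out 1 mouse, and the count then ran from 34 to 40. Over all genes those fits called 464 to 947 lower, against 851 with all mice. Without the date term 26 members were called in this arm and 35 in vehicle. The count over all genes called lower fell too, from 851 to 272 in this arm and from 1185 to 436 in vehicle. On date 1 alone 38 members were called lower (6.72% of tested genes), with a median of log2 -0.74, and on date 2 alone 13 (0.740% of tested genes), with a median of -0.82. Of the mitosis genes 29 of 30 were lower in this arm, and of the further replication genes 36 of 59. By date, 28 of the mitosis genes were called lower on date 1 (median log2 -1.06) and 2 on date 2 (median -0.70), and 27 and 2 of the further replication genes (medians -0.45 and -0.45).

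The second comparison asks what 1 h of dmPGE2 does to these transcripts, with the arms of each mouse compared within the mouse. Over all 8 mice 0 of the 45 members were called by edgeR, where 0.610% of 13942 tested genes were called in either direction. At an unadjusted p under 0.05 the count was 4 members (Cdc6, Pcna, Rpa1 and Tk1), against 12.5% of tested genes, and limma-voom called 0. The median difference of the members was log2 -0.02, with values from -0.32 to 0.28. None of the 45 genes moved in the same direction in all 8 mice. The share of all tested genes that did so was not taken, so this count sets the members apart from no other genes. That dmPGE2 acted on these cells was checked with genes known to respond to cAMP signaling. Crem rose over all mice (log2 1.32 ± 0.19, adjusted p = 0.0142), as did Dusp2 (log2 0.41 ± 0.044, adjusted p = 0.00718). The other 2 genes checked, Fos (log2 1.03 ± 0.27, adjusted p = 0.212) and Nr4a1 (log2 3.44 ± 1.4, adjusted p = 0.39), did not pass over all mice. In the edgeR fit with terms for each date, both passed on date 1 and on date 2. The adjusted p were 1.06e-09 and 0.0013 for Fos, and 3.39e-12 and 0.000223 for Nr4a1. Crem passed on date 1 (adjusted p = 0.000165) but not on date 2 (log2 0.90, adjusted p = 0.0893), and Dusp2 passed on both (0.00456 and 0.015).

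**Figure D4:**
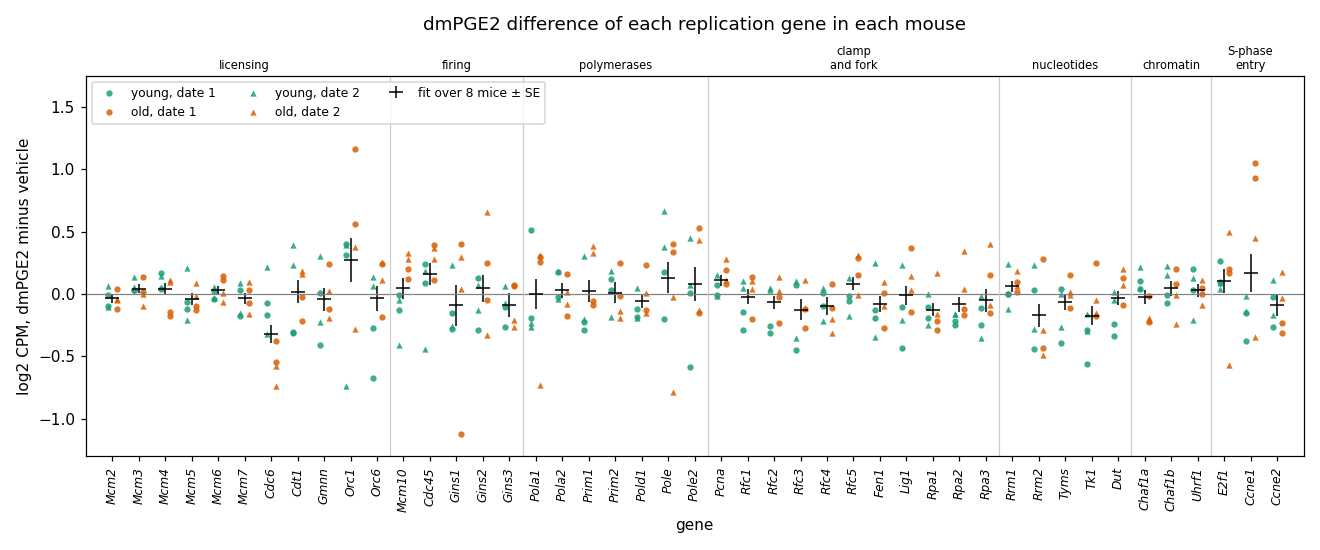
Log2 CPM of the dmPGE2 library minus the vehicle library of the same mouse (y axis) for each gene (x axis, by role); points are single mice, and the black bars the fit over 8 mice ± SE. The points scatter on both sides of 0 in most genes; for Cdc6 7 of the 8 mice lie below 0.

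Cdc6 came nearest to a call. Its level went from 63.7, 59.0, 101 and 98.3 CPM in vehicle to 56.5, 56.0, 80.9 and 114 CPM after dmPGE2 in the young mice, and from 34.3, 31.3, 41.8 and 39.7 to 26.4, 21.4, 25.1 and 26.6 CPM in the old mice. Within mice the log2 differences were -0.17, -0.07, -0.32 and 0.21 in the young mice and -0.37, -0.55, -0.73 and -0.58 in the old mice. Mouse 484 alone went up. The fitted difference was log2 -0.32 ± 0.075 (95% interval -0.48 to -0.16, adjusted p = 0.0815 by edgeR). DESeq2 gave the same gene an adjusted p of 0.0098, and over all alternatives the adjusted p ran from 0.0098 to 0.645. DESeq2 also called more of all genes, 337 higher and 106 lower, where edgeR called 71 and 14. For the other roles the gene with the smallest p is given. Pcna had within-mouse log2 differences of -0.01, 0.07, -0.02 and 0.15 in the young mice and 0.08, 0.19, 0.28 and 0.11 in the old mice (fit 0.11 ± 0.044, adjusted p = 0.306). The 2 mice below 0, 477 and 483, were both young. Tk1 had differences of -0.29, -0.56, -0.16 and -0.29 in the young mice and 0.25, -0.17, -0.15 and -0.05 in the old mice (fit -0.17 ± 0.074, adjusted p = 0.357). Those of Cdc45 were 0.24, 0.09, -0.44 and 0.18 in the young mice and 0.39, 0.11, 0.28 and 0.37 in the old mice (fit 0.16 ± 0.088, adjusted p = 0.498). In Tk1 only mouse 479 went up and in Cdc45 only mouse 483 went down. Pold1 (fit -0.06 ± 0.052), Chaf1b (0.05 ± 0.060) and Ccne1 (0.17 ± 0.15) had adjusted p of 0.717, 0.827 and 0.717.

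For the helicase ring the bounds were narrow. The Mcm2 to Mcm7 fits lay between log2 -0.04 and 0.04, and their 95% intervals between -0.14 and 0.14. For the members as a whole the 95% intervals of the dmPGE2 difference reached from -0.48 to 0.66, the widest belonging to the low-level Orc1 (log2 0.28, adjusted p = 0.569). Of the 59 further replication genes edgeR called 1, Rb1, the retinoblastoma protein, which rose 1.33-fold (log2 0.41 ± 0.077, adjusted p = 0.0379), and of the 30 mitosis genes 0. On date 1, where Nr4a1, an early responder, rose by log2 6.10, edgeR called 0 of the 45 members (2.93% of tested genes), with 6 at an unadjusted p under 0.05 (13.7% of tested genes) and a smallest adjusted p of 0.133, for Rfc2. On date 2 it also called 0 (0.387% of tested genes), with 2 at an unadjusted p under 0.05 (8.63%) and a smallest adjusted p of 0.365, for Cdc6. Nr4a1 rose by log2 0.83 there. In vehicle Nr4a1 was already higher on date 2, at a mean of 1838 CPM against 71.0 CPM on date 1. When the dmPGE2 difference itself was compared between the dates, a contrast added after seeing the data, edgeR called 0 of the 45 members (1.08% of tested genes), with 3 at an unadjusted p under 0.05 (9.67% of tested genes) and a smallest adjusted p of 0.195, for Cdt1.

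**Figure D5:**
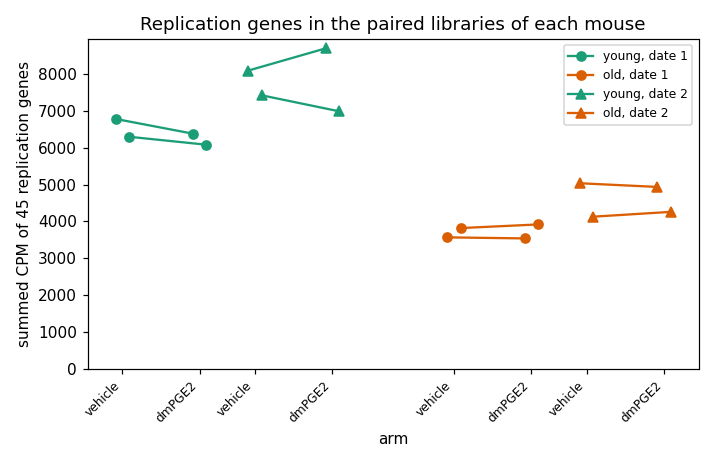
Summed CPM of the 45 replication genes (y axis) in the vehicle and dmPGE2 libraries of each mouse, joined by a line, by age and date (x axis). The lines are nearly level; the 4 old mice lie between 3538 and 5035 CPM, below every young mouse, the lowest of which is at 6081 CPM.

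Whether age alters the response was tested by the difference of the dmPGE2 effects, old minus young. edgeR called 0 of the 45 members and 0.00% of 13942 tested genes. At an unadjusted p under 0.05 there were 4 members, Cdc6, Chaf1a, Mcm10 and Ccne1, against 6.85% of tested genes. The value of Cdc6 was log2 -0.46 ± 0.15 (adjusted p = 0.696), which did not pass. Mcm10 differed by 0.39 ± 0.17 and Chaf1a by -0.26 ± 0.11 (both adjusted p = 0.712). In 2 members, Mcm10 and Chaf1a, the dmPGE2 difference had one sign in all 4 young mice and the other in all 4 old mice (0.918% of tested genes). Between the dates 2 members, Cdt1 and Rfc2, showed such a split (0.990% of tested genes). With 4 mice an age, a difference in response of the size of these errors was not detectable.

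Since date enters each age fit as a term, its size is given for the members too. In vehicle 15 of the 45 genes were higher on date 2 than on date 1 and 0 were lower, where 8.0% of tested genes were higher and 3.01% lower. The members' median was log2 0.31. The largest difference was that of Ccne1 (log2 2.22 ± 0.26, adjusted p = 0.000238), followed by Rrm2 (log2 1.24 ± 0.11, adjusted p = 2.18e-05), whose values by mouse are given above. In both genes each mouse of date 2 was above both mice of the same age on date 1. Mcm10 (log2 0.75 ± 0.12, adjusted p = 0.00265), Uhrf1 (log2 0.43 ± 0.078, adjusted p = 0.00435), Fen1 (log2 0.40 ± 0.074, adjusted p = 0.00496) and Cdc6 (log2 0.51 ± 0.11, adjusted p = 0.0124) came next by p. The remaining 9 were Prim2, Pcna, Rfc4, Orc1, Pold1, Mcm5, Tyms, Gmnn and Mcm2. Both mice of date 2 lay above both of date 1 in each age in 23 members (14.1% of tested genes). Of the mitosis genes 18 of 30 were higher on date 2, as were 9 of 12 myeloid progenitor, 10 of 10 neutrophil and 9 of 11 erythroid markers. Higher too were 8 of 10 tested T and NK cell markers and 2 of 6 tested B cell markers, while 12 of 14 stem cell markers were lower. The part of those cells in the date difference was not tested. The count of 15 fell to 5 without mouse 477, to 7 without 480 or 484 and to 8 without 486. Without 477, 480, 484 and 486 in turn, 707, 813, 871 and 951 of all genes were called higher, against 1069 with all mice. Rrm2, Ccne1, Mcm10, Uhrf1 and Fen1 were called in each of the fits that left out 1 mouse.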

How the data were processed

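Gene counts were taken as the authors deposited them, as raw whole-number counts per gene for 16 libraries, with no scaling applied. Per the submitters' processing notes, which give no roles, the build was mm10 and the tools included Subread 1.5.1, featureCounts and STAR 2.5.2b. The sources used here state neither annotation nor strand setting, and genes that overlap others or have close copies may be miscounted to an unknown degree. The table held 14829 named genes, after 2504 empty lines were dropped, and each gene exceeded 0.5 CPM in at least 2 libraries. Totals of 12960704 to 19226963 counts mean that a count of 0, which allows up to 3 counts, would correspond to at most 0.231 CPM.

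Counts were scaled by TMM, low counts were filtered by group with filterByExpr, and edgeR 4.0.16 (R 4.3.3) quasi-likelihood tests with robust dispersion were fitted to all genes. Benjamini-Hochberg adjustment ran over all tested genes, and a gene was called at an adjusted p under 0.05. The 2 age fits used the 8 vehicle or the 8 dmPGE2 libraries with terms for age and date. dmPGE2 was tested within mice, with the mouse as a block and dmPGE2 terms for each age (averaged, or subtracted for the interaction), and again with terms for each date and age. The pairing comes from the design, which split each mouse's cells. After group means were removed, the 2 libraries of a mouse correlated at r = 0.325 to 0.578, and after date means were removed too at 0.00179 to 0.156. No pair of libraries in a group was alike within sampling noise. Values in CPM use effective library sizes, and ± after a log2 difference is the standard error. The alternatives were DESeq2 1.42.0, limma-voom (limma 3.58.1), other size factors, no filter, no robust dispersion, no date term, single dates, no block and leaving out each mouse. The contrast of dmPGE2 effects between dates, the shares of opposite signs and the single-date counts of further replication genes were added after seeing the data.

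The members, the gene lists and the markers were chosen with earlier results of these data known, so the lists are not independent evidence. Mouse values are printed for up to 4 called members of each role with the smallest p, or for the role's smallest p where none was called. The scripts were tested on simulated counts with planted differences but no date or mouse effect. That test checked the median size of the estimates and not the error rate of the calls in these data.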

Additional observations from a re-analysis of the deposited data

Results flagged for a closer look

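In 7 of 180 sets of 4 libraries, 1 per member and group, a single mouse stood away from the other three by Dixon's criterion, where chance alone flags about 1 set in 20. Mouse 484, a young mouse of date 2, had 588 CPM of Mcm3 in vehicle against 477 to 489 CPM in the other young mice, and 645 CPM after dmPGE2 against 488 to 499.8 CPM. The same mouse had 28.0 CPM of Gins1 in vehicle, against 14.2 to 15.1 CPM. Mouse 486, an old mouse of date 2, had 78.4 CPM of Pola2 in vehicle against 61.0 to 62.3 CPM, and after dmPGE2 49.6 CPM of Rfc3 against 37.2 to 37.9 CPM and 144 CPM of Rfc5 against 106 to 107 CPM. Mouse 485 had 20.5 CPM of Pole after dmPGE2, against 63.9 to 69.3 CPM in the other old mice, and Pole was among the 4 members not called for age in that arm.

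In 4 members the dmPGE2 difference had one sign in every mouse of one group and the other sign in every mouse of the other group: 2 between the ages, where 0.918% of tested genes did so, and 2 between the dates (0.990%). Mcm10 was below 0 in the 4 young and above 0 in the 4 old mice, an edgeR difference of log2 0.39 (adjusted p = 0.712). Chaf1a was above 0 in the 4 young and below 0 in the 4 old mice, a difference of log2 -0.26 (adjusted p = 0.712). Cdt1 was below 0 in the 4 mice of date 1 and above 0 in the 4 of date 2, a difference of log2 0.45 (adjusted p = 0.195), and Rfc2 likewise by log2 0.26 (adjusted p = 0.313). None of these 4 differences passed, and between dates edgeR called 0 of 45 members, where 1.08% of tested genes were called, with 3 members at an unadjusted p under 0.05, where 9.67% of tested genes were.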

How the results depend on the processing

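All 45 age calls in vehicle stood with other size factors, no filter, DESeq2, limma-voom and non-robust dispersion. The count was 38 to 44 when 1 mouse was left out, 35 without the date term, 36 on date 1 alone and 19 on date 2 alone, the single dates having 2 mice a group. In the dmPGE2 arm the 41 calls became 34 to 40 with 1 mouse left out, 26 without the date term, 38 on date 1 alone and 13 on date 2 alone. Without the date term the count over all genes called lower fell too, from 1185 to 436 in vehicle and from 851 to 272 after dmPGE2. The dmPGE2 count of 0 stayed 0 with no replicate block, in the other tools except DESeq2, which called 1 member (Cdc6, lower), and without any single mouse. Over all genes DESeq2 called 337 higher and 106 lower, where edgeR called 71 and 14. The date count of 15 became 8 in young mice alone, 1 in old mice alone, and 5 to 17 with 1 mouse left out. The count over all genes called higher on date 2 fell too, from 1069 to 596 in young mice alone and to 213 in old mice alone. The cause of these shifts was not tested, beyond the fewer samples of the single-date and single-age fits. Single genes were followed under alternatives only for the members of each role with the smallest p, not for all 45. Among these values, 1146 of 1266 kept their direction and side of the threshold, 119 kept the direction but lost the call, 1 gained it, and 0 changed sign. Left out for age in vehicle were Prim2, Rpa1, Pole, Rfc3, Rpa3 and Pola1, whose calls were lost in some fits without 1 mouse. In the dmPGE2 comparisons, keeping the side meant staying uncalled. Because of this choice by p, these counts do not measure how stable the members are as a whole. Ccne1 and Orc1, at a few CPM in some libraries, had wide errors, and the source of these was not tested.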

Other observations

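Both old mice of date 1 had higher values after dmPGE2 for 2 members at low level, picked after their values were seen. The within-mouse differences of Ccne1 were log2 0.93 and 1.05, from vehicle levels of 2.41 and 3.63 CPM. Those of Orc1 were log2 0.56 and 1.16, from vehicle levels of 7.97 and 3.79 CPM. Orc1 was not particular to these mice, as it rose in 6 of the 8 mice and fell in 2. Both young mice of date 1 were among those that rose (log2 0.31 and 0.40). Other members, such as Pole and Cdc45, also rose in both old mice of date 1. Neither gene was called for dmPGE2 over all mice or for the difference in response between the ages.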
